A study of Mus musculus with 20 samples.

Results

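The E proteins and their Id inhibitors are 7 genes of the 22342 protein-coding genes on the chromosomes used here. Tcf3, Tcf4 and Tcf12 encode the 3 E proteins, and Id1, Id2, Id3 and Id4 the 4 inhibitors. They were chosen by name as 1 dimerisation network, with their H3K27ac lengths in the wild-type and mutant libraries used here already known, and above all the loss at Tcf4. Those lengths are therefore given as a description, with no test. Each gene was read over its body with 50 kb on either side, here called its window, and by start site where it has several.

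E proteins are basic helix-loop-helix transcription factors that bind the E-box, CANNTG, as dimers with themselves or with tissue-specific partners such as the neurogenins, which are proneural factors. Id proteins have the helix-loop-helix but no basic region. They pair with E proteins, keep them off DNA and so delay differentiation, and BMP signalling through SMAD proteins is a classical inducer of Id genes. Tcf3 and Tcf4 here are these E-protein genes, not the HMG-box TCF/LEF factors of WNT signalling, some of which once carried the same symbols.

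All libraries are ChIP-seq of mouse embryos at embryonic day 13.5, deposited as peak lists. Binding of the homeodomain factors NKX2-1 and LHX6 was mapped in basal ganglia of wild-type CD-1 embryos. Both factors act in the MGE (medial ganglionic eminence), the ventral forebrain zone that makes many cortical and striatal GABAergic interneurons. The 4 histone marks came from C57BL/6 MGE, either wild type or Nkx2-1cKO, a conditional Nkx2-1 knockout called the mutant here. H3K27ac is found at active promoters and enhancers, H3K4me1 mostly at enhancers, H3K4me3 at promoters, and H3K27me3 where Polycomb represses. The Cre driver, the deleted exons and the number of pooled embryos are not given in the sources used here. There is 1 library for each antibody and genotype, hence no replicate error, and a difference describes only the pair of libraries compared.

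The libraries held 26.8 to 89.1 M tags (M, mega) after removal of duplicates, with 57.3 M for wild-type and 55.9 M for mutant H3K27ac. The mutant lists covered more of the genome for every mark, and the ratio of total length was 1.10 for H3K4me1, 1.12 for H3K27ac, 1.22 for H3K4me3 and 1.32 for H3K27me3. Around the start sites (2.5 kb on each side) of 8 MGE and GABAergic marker genes the median H3K27ac cover was 95.8% in wild type and 88.2% in the mutant. Within that list Lhx6 (100% and 15.6%) and Lhx8 (90.4% and 22.2%) kept little of it. Of 5 pallial, 5 endothelial, 4 microglial and 3 blood markers, 5, 5, 3 and 2 had no wild-type H3K27ac there, and 4, 4, 3 and 2 had none in the mutant. The start site of Nkx2-1 itself had H3K27ac over 91.5% in wild type and 100% in the mutant, so these lists do not check the deletion. In bulk tissue, fewer cells that carry a mark and less of the mark in each cell cannot be told apart.

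The sites of factor binding are shown first because the marks are read around them. NKX2-1 had 5 peaks in the windows of Tcf3, Tcf4, Tcf12 and Id2, and LHX6 had 3 in those of Tcf4, Tcf12 and Id4. Id1 and Id3 had none. Of all protein-coding genes, 31.5% had an NKX2-1 peak and 4.06% an LHX6 peak in a window of this kind. Of the 7 members, 4 and 3 had one. Genes with an LHX6 peak had a median length of 53.4 kb against 14.9 kb for those without, and Tcf4 and Tcf12 are long genes (344 and 268 kb).

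At all 3 E-protein genes an NKX2-1 peak lay at a start site. Its summit was 0.418 kb upstream of the first start site of Tcf3, 0.417 kb before the last of Tcf4 and 18 bases before the second of Tcf12. Each of these peaks overlapped H3K27ac and H3K4me3 in both genotypes. Tcf3, Tcf4 and Tcf12 have 3, 3 and 2 groups of start sites. The share of all genes with an NKX2-1 peak at a start site was not counted, so no background stands beside these 3 genes. The stretches below, written in the direction of the gene from the mm9 (NCBIM37) reference, were printed to show which of the peaks held a core of the factors' own motifs. Capitals mark the NK2 core (CACTTGA or CACTCAA) and the LIM core (TAATTA or TAATGA) on either strand, searched in 200 bases around the summit. The first is the Tcf3 promoter peak (chr10:79896710-79896909, minus strand) and the second the part of the Tcf12 peak upstream of its second start site (chr9:71743891-71744007, minus strand). The third is the intronic Tcf12 site bound by both factors (chr9:71823104-71823303, minus strand). The fourth lies 43.5 kb downstream of Id2, inside its neighbour Kidins220 (chr12:25737411-25737610, minus strand), and the fifth 23.7 kb downstream of Id4 (chr13:48380391-48380590, plus strand).
Tcf3 promoter, NKX2-1: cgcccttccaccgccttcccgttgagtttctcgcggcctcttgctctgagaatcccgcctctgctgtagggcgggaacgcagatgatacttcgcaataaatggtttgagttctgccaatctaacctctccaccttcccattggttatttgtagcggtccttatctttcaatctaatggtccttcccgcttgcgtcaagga
Tcf12 second start site, NKX2-1: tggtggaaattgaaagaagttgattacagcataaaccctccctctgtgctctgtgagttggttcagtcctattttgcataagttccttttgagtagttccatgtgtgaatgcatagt
Tcf12 intron, NKX2-1 and LHX6: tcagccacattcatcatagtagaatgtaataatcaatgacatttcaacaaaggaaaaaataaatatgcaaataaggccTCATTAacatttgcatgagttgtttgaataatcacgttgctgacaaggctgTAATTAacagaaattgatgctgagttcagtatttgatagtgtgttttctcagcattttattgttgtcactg
Id2 downstream, NKX2-1: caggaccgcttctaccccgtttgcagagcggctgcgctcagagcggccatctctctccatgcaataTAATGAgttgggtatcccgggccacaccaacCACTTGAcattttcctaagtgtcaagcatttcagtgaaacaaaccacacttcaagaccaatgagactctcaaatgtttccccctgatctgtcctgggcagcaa
Id4 downstream, LHX6: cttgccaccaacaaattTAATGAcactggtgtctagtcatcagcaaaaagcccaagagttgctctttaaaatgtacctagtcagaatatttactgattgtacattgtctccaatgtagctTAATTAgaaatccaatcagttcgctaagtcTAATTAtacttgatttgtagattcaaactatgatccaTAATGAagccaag

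Neither promoter peak printed here held an NK2 or LIM core, while the Id4 site held 4 LIM cores, the shared Tcf12 site 2 LIM cores and the Id2 site 1 of each. The Tcf4 promoter peak held 1 NK2 core and the LHX6 peak inside Tcf4 3 LIM cores, and both are given by position only. Of all NKX2-1 summits 21.5% held an NK2 core in the same 200 bases, and of all LHX6 summits 41.5% held a LIM core, against 4.59% and 8.90% of wild-type H3K27ac summits. An E-box was found at 72.0% of NKX2-1 summits, 70.3% of LHX6 summits and 64.2% of wild-type H3K27ac summits. These shares describe letters and say nothing of E-protein binding, which was not measured.

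H3K27ac covered less of the E-protein genes and more of Id4 in the mutant. The summed cover of the 3 E-protein windows was 106 kb in the wild-type list and 70.0 kb in the mutant list (ratio 0.658). That of the 4 Id windows was 54.5 and 63.9 kb (ratio 1.17). All 3 E-protein genes had the shorter cover in the mutant, and 3 of the 4 Id genes the longer. The median ratio was 1.06 over all genes tested, and Id2, at 1.02, was below it. A gene was called lower or higher where the lengths differed at least 1.5 times and the larger was at least 2 kb. By this rule Tcf4 and Tcf12 were called lower and Id4 higher. Over 15190 genes with enough H3K27ac 2.57% were called lower and 8.62% higher.

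**Figure D1:**
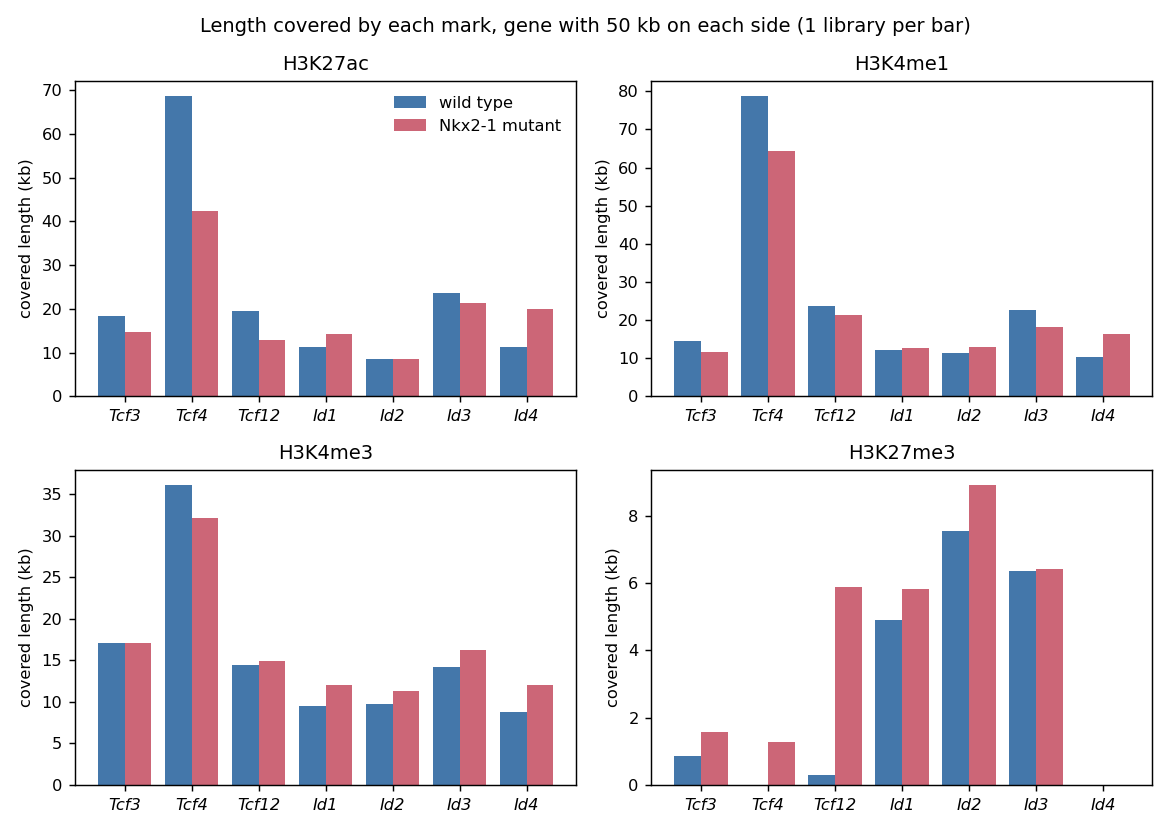
Length covered by each mark (kb, y axis) in the window of each gene, blue for wild type and red for the mutant, 1 library per bar and no error bars; each panel has its own scale. Tcf4 holds the longest H3K27ac cover of the 7 genes in both genotypes (68.7 and 42.4 kb), and H3K27me3 at Tcf12 stands at 0.308 kb in wild type against 5.89 kb in the mutant.

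The same H3K27ac lists were then counted by region, which is no separate support for the lengths above. A wild-type region was counted as lost where no mutant region of the mark overlapped it, and a mutant region as gained in the reverse case. At the E-protein genes 52 of 119 wild-type H3K27ac regions were lost (43.7%) and 4 of 83 mutant regions gained (4.82%). Tcf4 held 77 of the 119 and 40 of the 52 lost, Tcf12 held 12 of the lost, and Tcf3 lost 0 of 12. At the Id genes 4 of 54 were lost (7.41%) and 18 of 62 gained (29.0%). Genome-wide, 19.4% of wild-type regions were lost and 29.6% of mutant regions gained. The share gained at the Id genes was thus near that of the genome, and 9 of the 18 gained regions lay at Id4. The lost regions at E-protein genes were short and weak within their list, with a median length of 373 bases and a median −log10 p of 10.6, against 825 bases and 26.3 for those kept. When a mutant region within 1 kb also counted as keeping a region, 33 were lost.

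**Figure D2:**
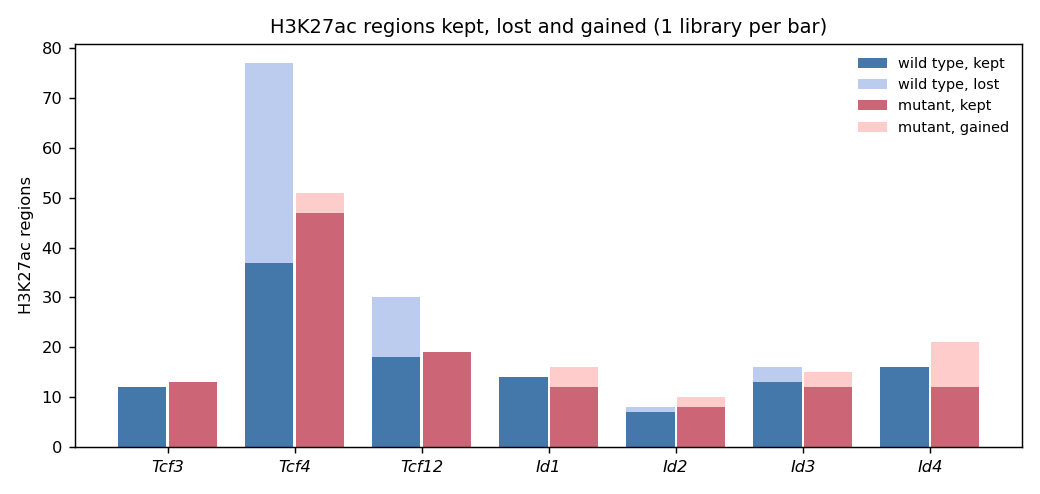
Number of H3K27ac regions (y axis) in each window, with the wild-type bar split into kept and lost regions and the mutant bar into kept and gained ones, 1 library per bar. Losses are most numerous at Tcf4 (40 of 77) and Tcf12 (12 of 30), and gains at Id4 (9 of 21).

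Tcf4, the E protein gene with the most H3K27ac (chr18:69503800-69847621, plus strand), had 68.7 kb of it in wild type against 42.4 kb in the mutant, a ratio of 0.617. Its wild-type cover was split between 38.6 kb shared with the mutant and 30.1 kb in wild type alone, and 3.82 kb was in the mutant alone. By the difference in kb, 8 of 22342 genes were as low as Tcf4, itself included. Only genes with long wild-type cover can reach such a difference. Among the 733 genes with at least 20 kb of wild-type H3K27ac the median ratio was 1.01, and 36 (4.91%) had a ratio as low as that of Tcf4.

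Most of the loss lay in the long introns between the second start site and the third, which also held most of the wild-type mark. The gene has 3 groups of start sites, the second 1.575 kb and the third 249 kb after the first. The stretch of 248 kb from the second to the third made up 55.8% of the window and held 73.9% of the wild-type H3K27ac. There the mark covered 50.8 kb in wild type against 26.96 kb in the mutant (ratio 0.531), and 35 of 58 regions were lost. This stretch held 83.5% of the bases marked in wild type alone. From the third start site to the gene end the cover was 16.1 and 13.3 kb (ratio 0.826), with 5 of 18 regions lost. This end held 16.55% of the bases marked in wild type alone. They made up 31.05% of its wild-type cover, against 49.56% in the stretch before it.

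The start sites themselves kept the mark. Within 2.5 kb of the 3 start sites, in order, H3K27ac covered 56.2%, 84.9% and 82.1% in wild type and 61.4%, 85.2% and 80.7% in the mutant. The region over the third start site (chr18:69750891-69754419), which holds the NKX2-1 peak (chr18:69752464-69753140), ranked high by −log10 p in both genotypes, above 99.6% of all wild-type regions and 99.2% of all mutant regions. H3K4me3 around the 3 sites covered 57.9%, 89.4% and 91.6% in wild type and 58.3%, 89.8% and 92.2% in the mutant. H3K4me1 around them covered 7.90%, 19.98% and 41.4% in wild type and 25.4%, 44.2% and 61.3% in the mutant.

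Along the gene in steps of 10 kb, 30 steps held wild-type H3K27ac, 22 of them with less in the mutant and 8 with more. Of the 17 steps with at least 1 kb in wild type, 9 kept under 50% of it. The step from 30 to 40 kb after the first start site held 1.69 kb and then 0, that from 80 to 90 kb 1.81 kb and then 0, and that from 90 to 100 kb 3.46 and 0.549 kb. Nearer to the third start site, the step from 230 to 240 kb held 3.89 and 0.868 kb. Other steps of the same stretch kept most of the mark: from 210 to 220 kb it covered 5.96 and 4.78 kb, and from 170 to 180 kb 5.30 and 4.18 kb. Towards the end of the gene, from 270 to 350 kb, the cover was 4.61 kb in wild type against 5.64 kb in the mutant, so the loss did not run the whole length.

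**Figure D3:**
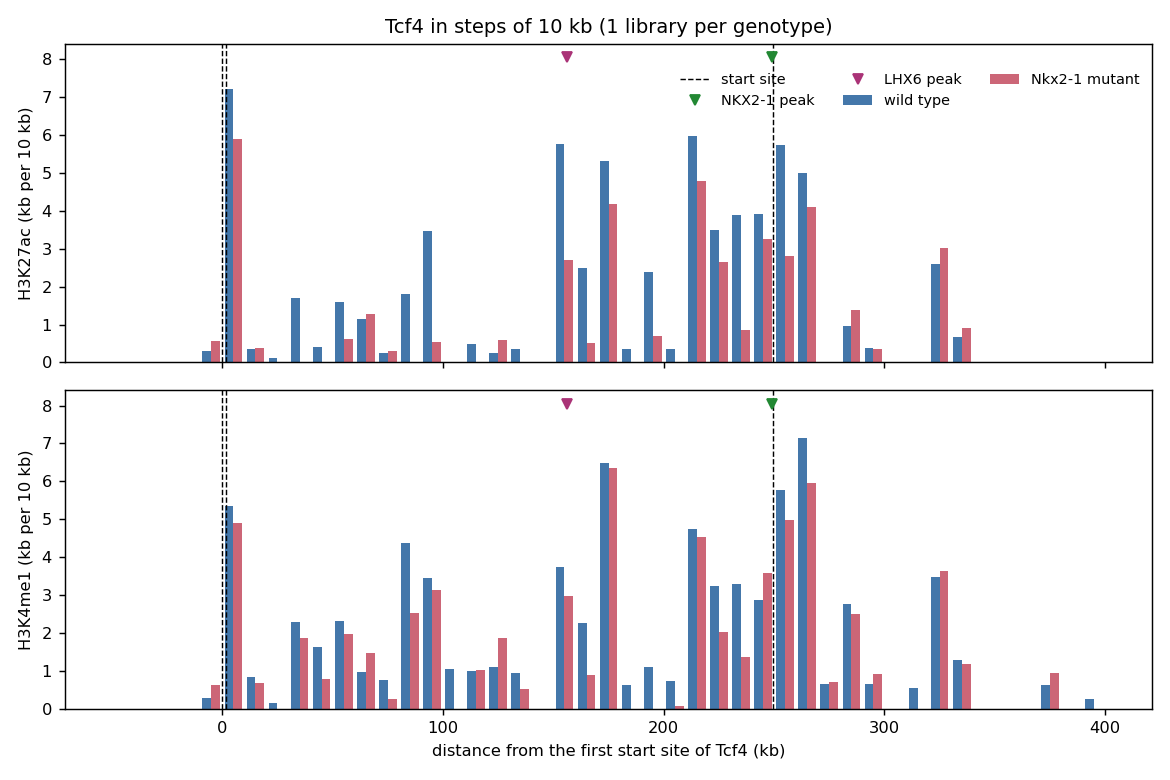
H3K27ac (top) and H3K4me1 (bottom) in kb per step of 10 kb along Tcf4, by distance from its first start site, blue for wild type and red for the mutant, 1 library per genotype; dashed lines mark the 3 start sites and triangles the LHX6 and NKX2-1 summits. H3K27ac bars from 80 to 100 kb and from 230 to 240 kb are low or absent in the mutant, while H3K4me1 from 90 to 100 kb is 3.44 kb in wild type against 3.14 kb in the mutant.

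H3K4me1 stayed over part of the bases that lost acetylation. The mark covered 78.8 kb of the Tcf4 window in wild type against 64.3 kb in the mutant (ratio 0.816, not called). Of the bases with H3K27ac in wild type alone, 66.3% carried H3K4me1 in wild type and 45.0% carried it in the mutant. Of the bases with H3K27ac in both genotypes, 82.4% carried H3K4me1 in wild type and 84.0% in the mutant. Of the 40 lost regions, 29 overlapped H3K4me1 in wild type and 19 in the mutant. H3K4me3 overlapped 7 and 3 of them, and in the mutant H3K27me3 covered 0.183% of the bases acetylated in wild type alone.

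The 3 strongest lost regions of Tcf4 were chr18:69585105-69586086, 80.0 kb after the second start site, and a pair 5.61 and 5.07 kb after the third, chr18:69758520-69760418 and chr18:69757949-69758305. Each had H3K4me1 and H3K4me3 in wild type and H3K4me1 in the mutant. The 3 strongest gained regions, chr18:69763273-69763636, chr18:69629013-69629316 and chr18:69789197-69789531, were weak, above at most 17.5% of the mutant list. None of the 40 lost regions held an NKX2-1 or LHX6 peak, and 10 had a factor summit within 10 kb. Of the 37 wild-type regions kept, 2 held a factor peak and 7 had a factor summit within 10 kb. At the LHX6 peak (chr18:69659923-69660254, 156 kb after the first start site) the wild-type region of 1282 bases faced a mutant region of 250 bases over the peak and another of 657 bases beside it. The step of 10 kb around that peak held 5.77 kb of H3K27ac in wild type against 2.699 kb in the mutant.

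Tcf12, which encodes the E protein HEB (chr9:71692059-71959626, minus strand), was the other gene called lower. Its H3K27ac cover was 19.5 kb in wild type against 12.9 kb in the mutant (ratio 0.663), with 12 of 30 regions lost and none gained. Of the wild-type-only bases 60.2% lay between the first and second start sites, a stretch of 216 kb in a window of 368 kb. The cover in it was 10.2 and 6.24 kb (ratio 0.610). In the 50 kb before the first start site the ratio was 0.788, and from the second to the gene end 0.753. The 50 kb after the gene end held 0.586 kb and then 0. Around the first start site H3K27ac covered 51.2% in wild type and 44.1% in the mutant, and around the second 68.4% and 51.4%. With regions of −log10 p of at least 10 alone, the ratio was 0.719 and the gene was not called.

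The strongest lost regions of Tcf12 were chr9:71773623-71773990 and chr9:71798811-71799316, 29.9 and 55.2 kb upstream of the second start site, and both kept H3K4me1 in the mutant. Next came 3 regions tied in −log10 p, chr9:71728455-71728738, chr9:71743219-71743468 and chr9:71779262-71779547, the second of them 0.551 kb after the second start site. Of the 12 lost regions 9 had H3K4me1 in wild type and 7 in the mutant, and none held a factor peak. Of the 18 wild-type regions kept, 2 held one. The site bound by both NKX2-1 and LHX6, 136 kb after the first start site, overlapped H3K4me3 in both genotypes and H3K27ac or H3K4me1 in neither. LHX6 at that site was above 88.0% of its list by −log10 p and NKX2-1 above 76.0%.

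H3K27me3 at Tcf12 went the other way, from 0.308 kb in wild type to 5.89 kb in the mutant. Tcf12 was the 1 gene called higher for this mark, of the 4 members with enough of it, while 23.2% of 8091 genes tested were called higher and 1.33% lower. Of 9 mutant regions 8 were gained, while 46.6% of mutant H3K27me3 regions were gained genome-wide. Of the 8, 4 lay 43.9 to 48.3 kb upstream of the first start site, 3 lay 4.48 to 6.79 kb upstream of the second and 1 was 1.03 kb after it. The strongest gained region, chr9:72004035-72005386, overlapped H3K27ac, H3K4me1 and H3K4me3 in both genotypes. In the step from 40 to 50 kb upstream of the first start site, H3K27me3 covered 0 kb in wild type against 3.33 kb in the mutant. With flanks of 10 kb or 2.5 kb the cover at Tcf12 was 0.308 and 2.57 kb, and the gene was still called higher. The full window also holds Rpl15-ps2. When the lists were shortened to the same total length, the cover was 0.308 kb in wild type against 1.70 kb in the mutant, below the 2 kb the rule asks for. Tcf4 had 0 and 1.27 kb of H3K27me3 and Tcf3 0.867 and 1.58 kb, both under 2 kb and not tested.

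**Figure D4:**
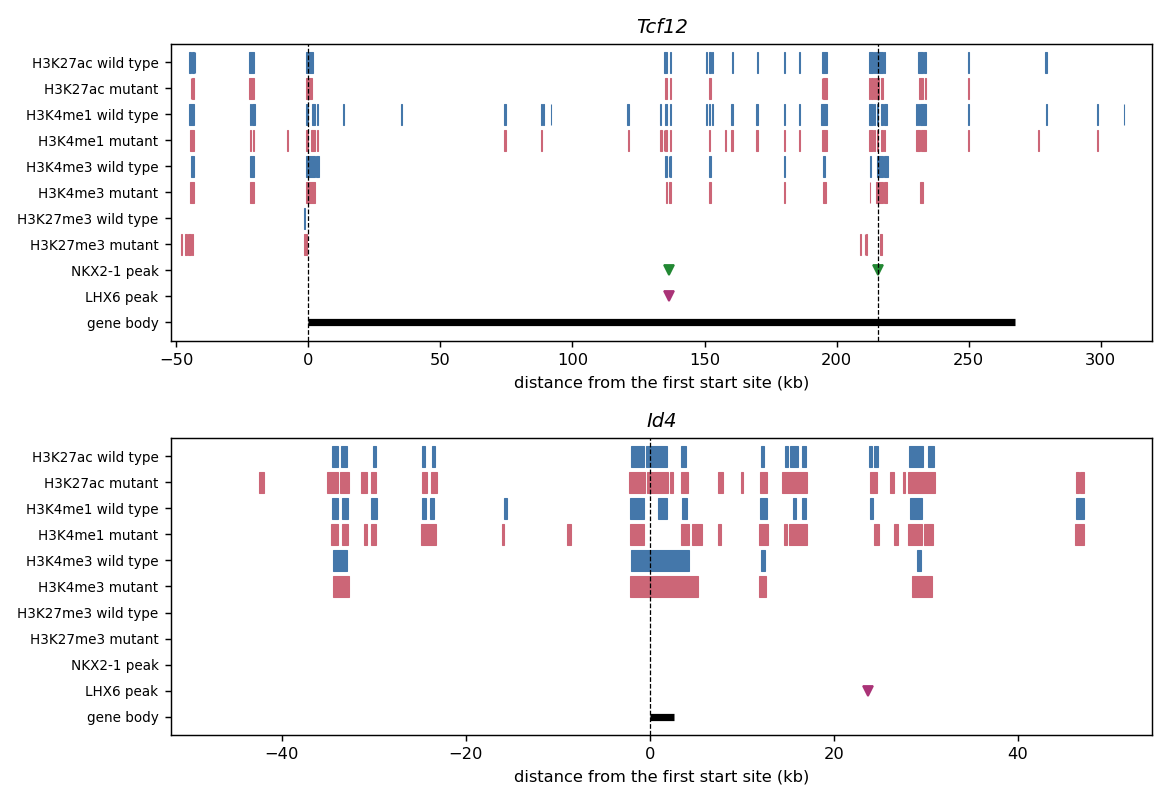
Regions of the 4 marks in wild type (blue) and mutant (red) and factor summits (triangles) along Tcf12 (top) and Id4 (bottom), by distance in kb from the first start site in the direction of the gene; the black bar is the gene body and dashed lines are start sites. Tcf12 loses 12 of 30 H3K27ac regions and gains 8 H3K27me3 regions, and Id4 gains 9 H3K27ac regions and has no H3K27me3 in either genotype.

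Tcf3 (chr10:79872259-79896392, minus strand), the shortest of the E-protein genes, was not called over its window, with 18.3 kb of H3K27ac in wild type against 14.7 kb in the mutant (ratio 0.806). Its window also holds Plk5, Mex3d, Mbd3 and Uqcr11. Much of the difference lay at the third, internal start site. The 50 kb before the first start site held 14.5% of the bases marked in wild type alone, and that after the gene end 16.4%. Around the third start site H3K27ac covered 58.6% of the surrounding 5 kb in wild type against 11.7% in the mutant. H3K4me1 covered 41.5% of it and then 0, and H3K4me3 24.6% and then 0. The wild-type H3K27ac region over this site, chr10:79883708-79886635, was 2928 bases long. Within its borders the mutant list had a region of 298 bases over the site and another of 288 bases beside it.

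The first start site of Tcf3, next to the NKX2-1 peak, had 69.6% and 63.4% of H3K27ac and 69.7% and 68.7% of H3K4me3. Over the gene with 2.5 kb on each side the H3K27ac cover was 7.87 and 5.06 kb, and by this narrower window the gene was called lower (ratio 0.643). For H3K4me1 it was called lower with flanks of 10 kb (0.667) and 2.5 kb (0.624), against a ratio of 0.800 over the full window. No H3K27ac region of Tcf3 was counted as lost or gained, since the shortened regions still overlapped.

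**Figure D5:**
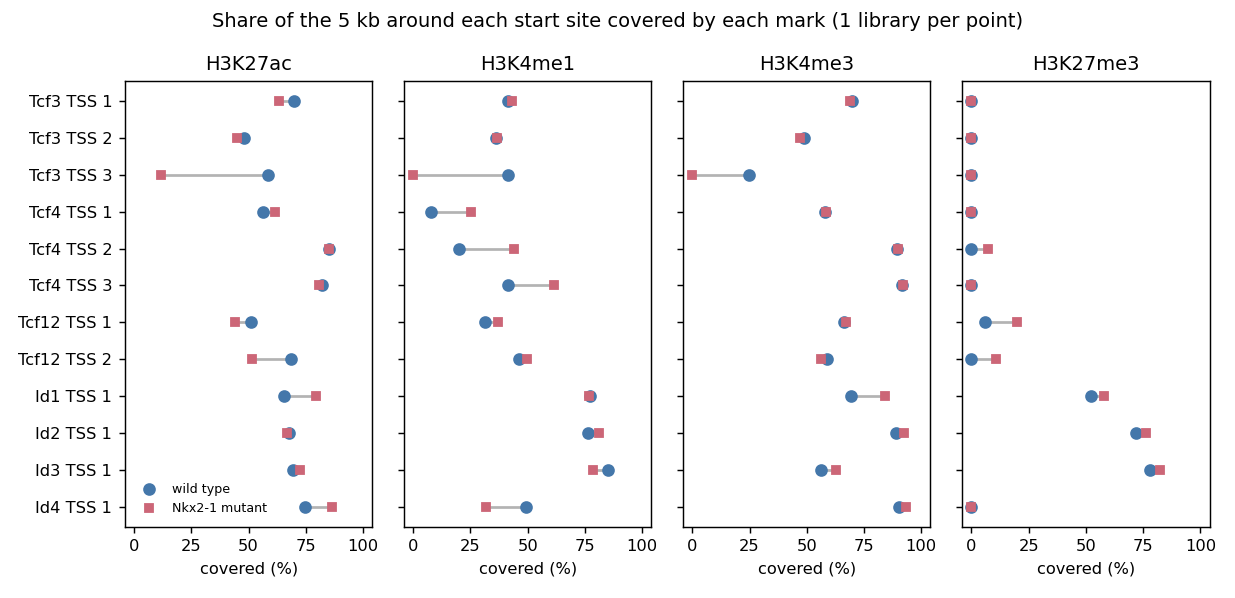
Share of the 5 kb around each start site (TSS, transcription start site) covered by each mark (x axis, %), blue circles for wild type and red squares for the mutant, joined by a line, 1 library per point. The third start site of Tcf3 stands apart, with H3K27ac at 58.6% and 11.7%, and H3K27me3 lies around the start sites of Id1, Id2 and Id3 but not of Id4 in both genotypes.

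Id4 was the 1 Id gene called for any mark. In the developing brain Id4 is known for keeping neural progenitors dividing. Its window (gene at chr13:48356796-48359405, plus strand) holds no other gene. H3K27ac covered 11.3 kb in wild type against 19.9 kb in the mutant (ratio 1.76), and 9 of 21 mutant regions were gained while none of 16 wild-type regions was lost. The cover upstream of the gene was 2.39 and 5.36 kb, and downstream 4.76 and 9.41 kb. Over the gene with 2.5 kb on each side it was 4.18 and 5.15 kb, so most of the difference lay in the flanks. With a flank of 10 kb the ratio was 1.44 and with 2.5 kb 1.23, and Id4 was then not called.

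Part of this difference came from wider regions. A wild-type region 29.3 kb downstream of the Id4 start site, chr13:48384919-48386436, was 1518 bases long, and the mutant region over it and its neighbour, chr13:48384804-48387796, was 2993 bases long. The strongest gained region, chr13:48358983-48359314, lay in an exon of Id4 itself. The next 2, chr13:48325450-48326124 and chr13:48314353-48314851, lay 31.0 and 42.2 kb upstream. The LHX6 site downstream overlapped H3K27ac in both genotypes and H3K4me1 in wild type. No gained region held a factor peak, beside 1 of the 12 mutant regions kept.

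H3K4me1 at Id4 covered 10.4 kb in wild type against 16.4 kb in the mutant (ratio 1.59). It was the only member called for this mark, of 7, while 1.61% of 16475 genes tested were called lower and 4.61% higher. This call did not hold with flanks of 10 kb (1.37) or 2.5 kb (0.989), with −log10 p of at least 10 (1.47) or with lists of the same total length (1.42). Within 2.5 kb of the start site H3K4me1 covered 49.3% in wild type and 31.7% in the mutant, while H3K4me3 covered 90.1% and 93.2%. H3K4me3 over the window was 8.74 and 12.1 kb (ratio 1.38). No member was called for H3K4me3, although Tcf12 was called lower (0.639) with lists of the same total length. For this mark 6.25% of 16858 genes tested were called higher and 0.184% lower.

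Id1, Id2 and Id3 were called for no mark and, unlike Id4, carried H3K27me3 together with the active marks around their start sites. Id1 (chr2:152561987-152563146) had 11.2 kb of H3K27ac in wild type against 14.1 kb in the mutant, Id2 (chr12:25778666-25780957) 8.44 and 8.58 kb, and Id3 (chr4:135699412-135701670) 23.5 and 21.2 kb. H3K27me3 around their start sites covered 52.4% and 57.9% at Id1, 71.8% and 76.3% at Id2, and 78.2% and 82.2% at Id3. At Id4 it was absent from the window in both lists. H3K27me3 is read here from bulk tissue, so active and repressive marks over the same bases need not lie in the same cells.

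H3K4me3 around the start sites covered 69.4% and 84.0% at Id1, 89.1% and 92.4% at Id2, and 56.4% and 62.7% at Id3. Over all 4 Id windows the H3K4me3 ratio was 1.23, beside 1.22 for the whole genome. The lower cover of H3K27ac at Id3 lay downstream of the gene, towards its neighbour E2f2, with 12.1 and 9.54 kb, and upstream it was 7.39 and 7.48 kb. H3K4me1 at Id3 was 22.5 and 18.1 kb (ratio 0.803, not called), and with −log10 p of at least 10 the ratio was 0.649 and the gene was called lower.

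The changed H3K27ac regions at these 3 genes were short. At Id3 the lost H3K27ac regions chr4:135704866-135705236, chr4:135707218-135707503 and chr4:135712600-135712954 lay 5.59 to 13.4 kb downstream, and the gained ones, chr4:135688827-135689128, chr4:135693113-135693370 and chr4:135719629-135719959, were 258 to 331 bases long. At Id2 1 region was lost, chr12:25768255-25768504, and 2 were gained, chr12:25777371-25777622 and chr12:25806479-25806876. At Id1 none was lost, and the 3 strongest of 4 gained regions were chr2:152579784-152580232 and chr2:152590321-152590600, both inside Cox4i2, and chr2:152564371-152564786, 2.60 kb downstream of the start site.

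The partners and regulators of this network were read from 3 lists of genes. Of 18 bHLH partners, 9 had enough H3K27ac and none was called (median ratio 1.10, beside 1.06 for all genes). By H3K4me1, of 17 tested, the proneural gene Neurog2 was called lower, with 4.56 kb in wild type against 1.84 kb in the mutant. Nhlh2 was called higher, with 4.11 and 7.06 kb. Over all genes 1.61% were called lower and 4.61% higher for this mark. By H3K4me3 Tal1 (4.33 and 8.05 kb) and Neurog3 (2.18 and 4.43 kb) were called higher of 16, beside 6.25% of all genes.

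None of the 7 HES and HEY repressors, several of which are Notch targets, was called for any mark, with a median H3K27ac ratio of 1.00. Of 19 BMP pathway genes, 13 had enough H3K27ac, and 4 were called higher and none lower (median ratio 1.20). Over all genes 8.62% were called higher and 2.57% lower for this mark. The inhibitory SMAD gene Smad6 had 6.94 and 11.5 kb, the BMP antagonist gene Nog 5.81 and 9.41 kb, the common SMAD gene Smad4 1.95 and 3.66 kb, and the ligand gene Bmp6 1.54 and 2.496 kb. For H3K27me3 the receptor genes Bmpr1b (2.71 and 6.74 kb) and Acvr1 (2.42 and 3.88 kb) and the inhibitory Smad7 (2.27 and 5.92 kb) were called higher of 13, a share near the 23.2% of all genes. For H3K4me3 Bmpr1b was called higher of 18, with 5.51 and 9.58 kb, beside 6.25% of all genes. In every list but the bHLH partners' H3K4me1 the called genes were higher, as were most called genes of the genome, and with lists of the same total length the 12 higher calls of the 3 lists were 4.

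Genes whose pattern was most like that of Tcf4 or Tcf12 were taken by the distance between their log2 ratios of the 4 marks, among genes with at least 20 kb of wild-type H3K27ac. For Tcf4, of 732 genes, the nearest were Acpl2 (distance 0.339 on the log2 scale), Rhbg, Cdca7, Agap1 and Sox6. Sox6, a transcription factor gene of MGE-derived interneurons, had 42.3 kb of H3K27ac in wild type against 26.2 kb in the mutant. Rhbg, with 53.9 and 43.9 kb, kept a larger share of the mark than Tcf4. Rhbg, Cdca7, Agap1 and Sox6 had 9.32 to 60.3 kb of H3K27me3 in wild type and 26.5 to 106 kb in the mutant. At Tcf4 it was 0 and 1.27 kb. For Tcf12, of 733 genes, they were Parp16 (0.131), Elmo1, Gm16039, Irs2 and Nsg2. Parp16 had 20.1 and 12.7 kb of H3K27ac and 0 and 4.10 kb of H3K27me3, close to the values of Tcf12 in both marks. Irs2 (31.0 and 26.9 kb of H3K27ac) and Nsg2 (30.9 and 31.2 kb), at distances of 0.608 and 0.647, did not share the lower H3K27ac. Each pattern rests on 1 pair of libraries per mark.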

How the data were processed

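Of 20 samples, 10 have a peak list (2 factors, 8 marks), and the 10 input or IgG samples were not analysed here. The submitters' processing notes name BWA 0.6.2, MACS2 2.1.0, bcl2fastq 1.8.4, CASAVA 1.8.2 and build mm9. Per the file headers, MACS 2.1.0.20140616 ran on merged alignments with input as control, a p-value limit of 1e-05, an extension to 250 bases and split summits. The H3K4me3 libraries had their own input. The deposited columns hold a signal (pileup at the summit, in tags), a −log10 p-value, a −log10 q-value and a fold enrichment, the authors' ratio over control. Per the file headers q-values were not calculated, so that column was not used. Fold and −log10 p described and ranked regions within a list, and −log10 p also set the stricter limit below, which was applied to every list. Depth per library is the authors' count of kept tags, per the file headers.

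Summits that share their peak's borders were joined into 1 region carrying the strongest summit's values, on chromosomes 1 to 19 and X. Cover and overlaps (at least 1 base) were computed in Python 3.11.15 (pandas 2.3.3, numpy 2.4.6, matplotlib 3.10.9), with bedtools 2.31.1 as a check. Covered lengths were tested on simulated bases and against bedtools in 300 windows each, with 0 mismatches. Genes came from GENCODE vM1, start sites within 1 kb were joined, and coordinates count from 1. With 1 library per group no p-value can be given, and the rule of 1.5 times and 2 kb stands in for a test.

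The members and lists were chosen with earlier results of these data known. Named were all 7 members, in each list the genes past the rule (up to 4 per mark and direction), the 5 genes nearest in pattern (log2 of mutant over wild-type kb, 1 kb added to each), up to 3 lost and 3 gained H3K27ac regions per gene, the region over each start site where the text turns on it, and every factor peak. Alternatives were other flanks, a stricter −log10 p, equal total lengths, a scaled fold, a fold of 2 and other rules of overlap. The result for 1 listed gene is not reported here.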

Additional observations from a re-analysis of the deposited data

How the results depend on the processing

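No paired analysis was possible because each antibody and genotype has 1 library, and none could be left out in turn. Of 94 alternative values for single genes, 68 kept their direction and their side of the rule, 15 that were not called in the first place crossed a ratio of 1 (Tcf12 H3K4me3 into a call of lower, at 0.639 with equal total lengths), 6 lost the call, 4 others gained one and 1 called value reversed, the H3K4me1 ratio of Id4 at 0.989 with a flank of 2.5 kb. The H3K27ac ratio of Tcf4 was called lower under every alternative of flank, −log10 p and total length (0.519 to 0.617). Over all genes, H3K27ac gave 1699 calls, H3K4me1 1024, H3K4me3 1084 and H3K27me3 1988. A flank of 10 kb gave 1038 for H3K27me3, and 2.5 kb gave 1010 for H3K27ac, 708 for H3K4me3 and 807 for H3K27me3. A −log10 p of at least 10 gave 1548 for H3K4me1. Equal total lengths gave 298 for H3K4me3 and 1016 for H3K27me3, and a fold divided by the ratio of total lengths 325 and 922. A fold of 2 gave 574, 184, 231 and 998 for the 4 marks. Over the members and marks 2 calls were lower, with 4 at a flank of 2.5 kb and 0 at a fold of 2, and 3 were higher, with 1 at flanks of 10 kb or 2.5 kb, at equal lengths and at a fold of 2. In the 3 lists 1 call was lower, with 2 at a flank of 10 kb, 4 at the stricter −log10 p and 3 at equal lengths and the scaled fold, and 12 were higher, with 7 at a flank of 2.5 kb, 4 at equal lengths, 6 at the scaled fold and 3 at a fold of 2. E-protein H3K27ac regions lost went from 52 to 33 and gained from 4 to 1 with regions within 1 kb counted, and gained to 0 at equal lengths. Id regions lost went from 4 to 2 at the stricter −log10 p, and gained from 18 to 11 there, 6 at equal lengths and 10 within 1 kb. The cause of these shifts was not tested.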
